A study of Sus scrofa with 9 samples.

Results

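The matrix metalloproteinases and their tissue inhibitors were measured in cultured endothelial cells of the pig coronary artery. The set was a list of 10 genes, MMP1, MMP2, MMP3, MMP7, MMP9, MMP14, TIMP1, TIMP2, TIMP3 and ADAMTS1. Its members were all probe sets to which the platform annotation gives exactly 1 gene symbol, that symbol being one of these genes. This found 10 of the 6765 genes named in this way, with 17 of the 23999 probe sets that are not array controls. A probe set is a group of short probes on the array for one transcript. Where a gene had several, they are numbered from the brightest to the dimmest. Probe set 1 leads for its gene.

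Matrix metalloproteinases are zinc enzymes that cut collagens, basement membrane proteins, proteoglycans and cell surface proteins, and most are made as inactive proenzymes. The TIMP proteins bind the active site of the enzymes and block it. TIMP2 has a further role, because it links the proenzyme of MMP2 to the membrane-anchored protease MMP14, which cuts the proenzyme and starts its activation. In the vessel wall this system takes part in basement membrane turnover, in the migration of endothelial cells and in the repair of an injured lining. Transcript levels do not show whether an enzyme is active.

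RNA of 9 samples was hybridised to Affymetrix porcine arrays, 1 array per sample and 3 per group. The passage 1 group was the control, primary coronary arterial endothelial cells cultured for 1 week. The passage 4 group was cells of the same kind taken through weekly passages to passage 4, which the labels call senescent. The regenerated group was endothelium that had grown back in the animal after denudation, which was then scraped off and cultured with no further passage. All groups were collected at basal condition, so none received an agent, and all cells had been in culture. The labels give neither the strain nor the age of the pigs, and no label tells if the 3 samples of a group were different pigs or different dishes. The p-values therefore cover only the spread between these samples, which may be technical. The labelling reaction started from 1 ug of RNA at passages 1 and 4 and from 0.5 to 1 ug for regenerated cells. In comparisons with regenerated cells, RNA input and group therefore cannot be told apart.

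The values are MAS5 signals, linear array intensities in arbitrary units. The median signal of an array ran from 85.9 to 108. Arrays correlated with r of 0.94 to 0.97 within groups and 0.90 to 0.95 between groups across probe sets, which are not independent replicates. Spike-in transcripts added before labelling divided the arrays by their log2 difference of 5' and 3' signal. That difference was -2.10 to -1.78 in passage 1 array 1 and the 3 passage 4 arrays, and -5.26 to -4.24 in passage 1 arrays 2 and 3 and the 3 regenerated arrays. This division, found in these data, is called the kind of labelling below. The labels name no such division and give no reason for it, and its cause was not tested. A value within the kind comes from a fit with the division as a block, in which passage 4 is compared with passage 1 through passage 1 array 1 alone. Regenerated cells are compared in it with passage 1 arrays 2 and 3 alone. Passage 4 and regenerated arrays share no kind, so between them no comparison of matched arrays exists. The value given there sets the difference of passage 4 from passage 1 array 1 against that of regenerated cells from passage 1 arrays 2 and 3. A call lost in it is not a matched comparison that failed. The endothelial markers CDH5 and PECAM1 were bright on every array, at 8524 to 11246 and 5520 to 9079, whereas KDR was below the 40th percentile of all 9 arrays. VWF, another endothelial marker, was dim too, at 22.8 to 52.1 on its brightest probe set (percentiles 29.5 to 41.1).

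Dim probe sets were left out of the tests: a probe set had to exceed the 40th percentile of the array on 3 or more of the 9 arrays. Of the 17 probe sets 11 passed, for 8 genes, out of 15299 tested in all. The 4 probe sets of MMP3, the single one of MMP1 and probe set 3 of TIMP3 did not. A filter of this kind can pass a probe set through the group where it is bright, so the tested probe sets do not stand for the whole set. In the plot of brightness TIMP1, TIMP2 and MMP2 lie at the bright end of every array, and MMP1 and MMP3 at the dim end.

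**Figure D1:**
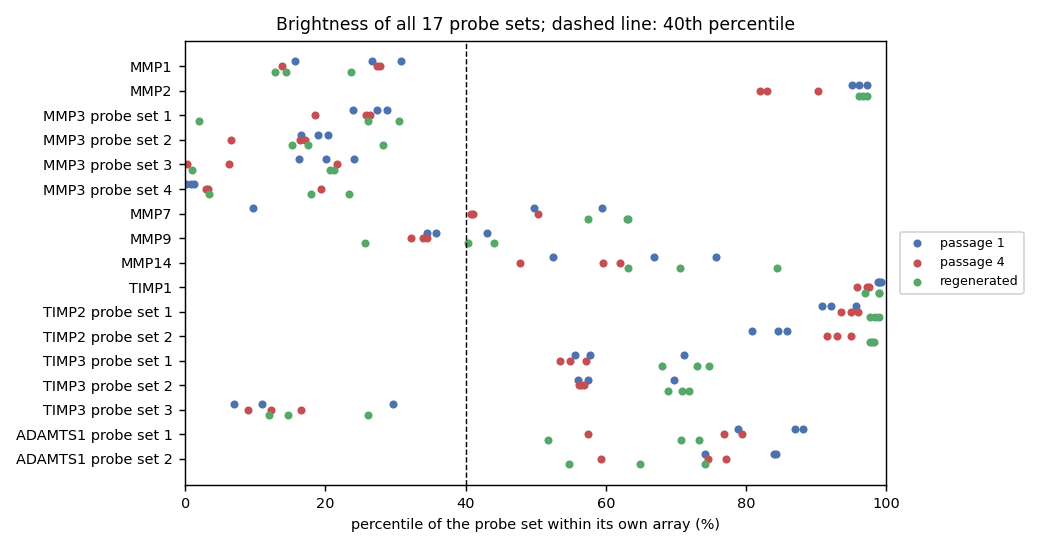
Percentile of each of the 17 probe sets within its own array (x axis, %), with 1 point per array coloured by group and a dashed line at the 40th percentile. TIMP1 lies between 95.8 and 99.2, while all points of MMP1 and MMP3 lie at or below 30.8.

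Differences were taken on the log2(signal + 16) scale, on which the change of dim probe sets is understated. They were tested with limma over all 15299 probe sets, and the threshold was a Benjamini-Hochberg adjusted p of 0.05. SE is the standard error of a log2 difference.

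At passage 4 the gelatinase MMP2 and the inhibitor TIMP1 were lower than at passage 1, and the dimmer probe set of TIMP2 was higher. Of the 11 tested probe sets 1 rose and 2 fell. Among all tested probe sets 4.79% passed in this comparison, 2.71% upward and 2.08% downward. With each array centred on its median, the share of upward calls among all calls went from 56.6% to 39.7%, and the median of all tested probe sets from 0.04 to -0.12, while the members kept 1 rise and 2 falls. In 3 of 11 probe sets the groups did not overlap, against 24.9% of all tested probe sets. The median log2 difference of the 11 was -0.48, against 0.04 over all. At an unadjusted p under 0.05 the count was 4, where 19.7% of all tested probe sets were under it. Within the kind of labelling 1 of the 11, TIMP2 probe set 2, passed, with 150 of 15299 in all.

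Regenerated cells had more TIMP2 transcript than passage 1 cells on both probe sets, and no member fell past the threshold. Of the 11 probe sets 2 rose, against a background of 5.49% of all tested probe sets past the threshold, 2.98% upward and 2.51% downward. The upward majority among all calls, 54.3%, became 47.4% with median centring and 41.6% without regenerated array 1, and the members had 2 rises and 0 falls in both. Groups did not overlap for 3 of 11 probe sets, against 23% of all. The median log2 difference was 0.67, against -0.01 over all, and the count at an unadjusted p under 0.05 was 7, where 22% of all tested probe sets were under it. Member rises numbered 4 without passage 1 array 2, and without passage 4 array 3 the count past the threshold was 3.

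Between passage 4 and regenerated cells, MMP2, both probe sets of TIMP2 and both tested probe sets of TIMP3 were lower at passage 4. This comparison is the difference between the other comparisons, since the control cancels, and it shares its arrays with them. Of the 11 probe sets 5 fell and 0 rose, where 12.5% of all tested probe sets passed, 8.14% upward and 4.35% downward. With median centring the upward share of all calls went from 65.2% to 52.3%, and the members still had 5 falls and 0 rises. Groups did not overlap for 6 of 11, against 36.2% of all, and the median was -1.21, against 0.01. The count at an unadjusted p under 0.05 (limma) was 7, where 28.6% of all tested probe sets were under it. With the kind of labelling as a block, 0 of the 11 and 35 of 15299 probe sets passed here, although these groups share no kind. Leaving out passage 4 array 1 reduced the 5 falls to 2, and leaving out passage 4 array 2 or 3 or regenerated array 2 or 3 reduced them to 3. Over all tested probe sets the downward calls dropped as well, from 666 to 377 in the first of these fits and to 327 to 368 in the others.

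**Figure D2:**
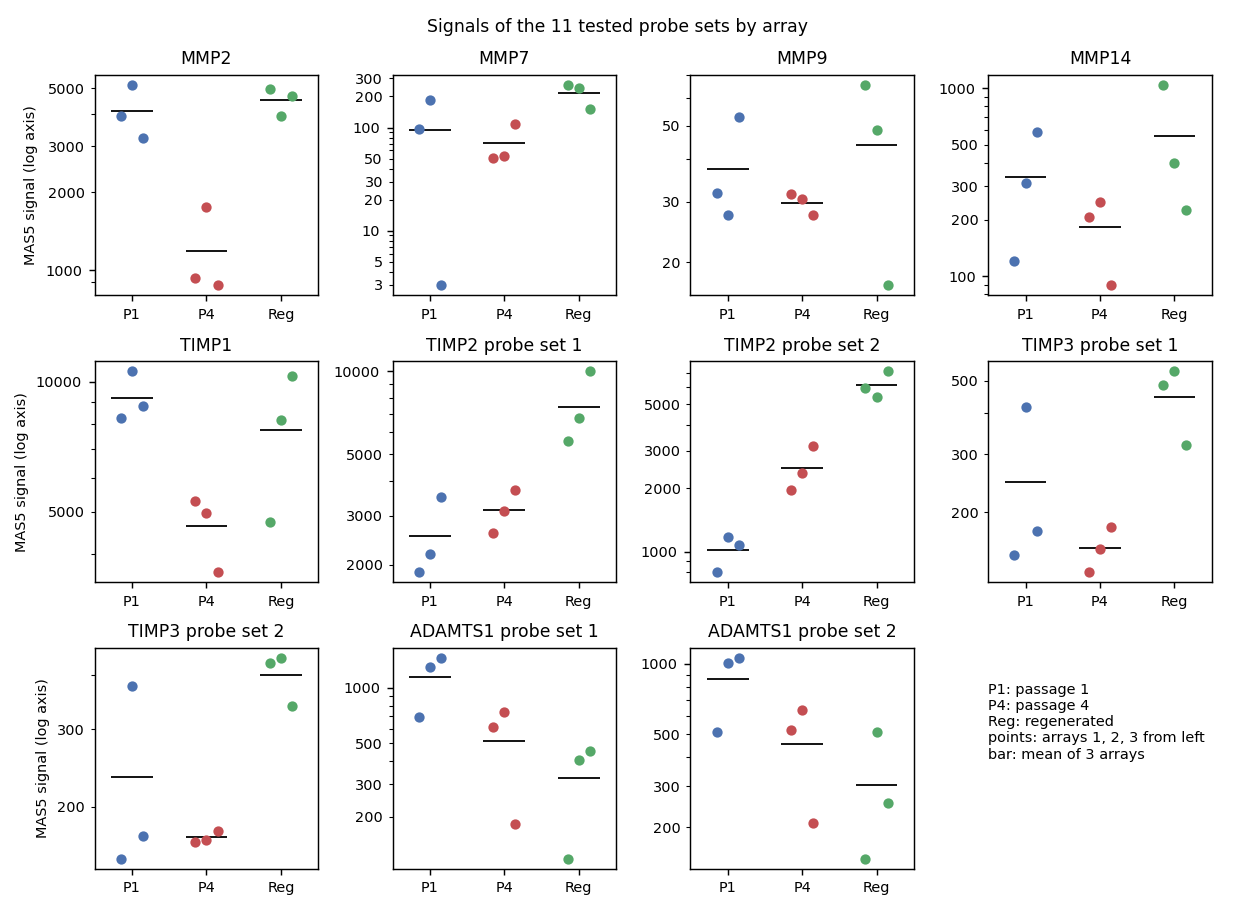
MAS5 signal (log y axis, arbitrary units, a separate scale in each panel) of the 11 tested probe sets in each of the 9 arrays, with points for arrays 1, 2 and 3 of a group from left to right and a bar at the mean. The 3 passage 4 points of MMP2, at 879 to 1745, lie below all others, and the 3 regenerated points of both TIMP2 probe sets lie above all others.

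**Figure D3:**
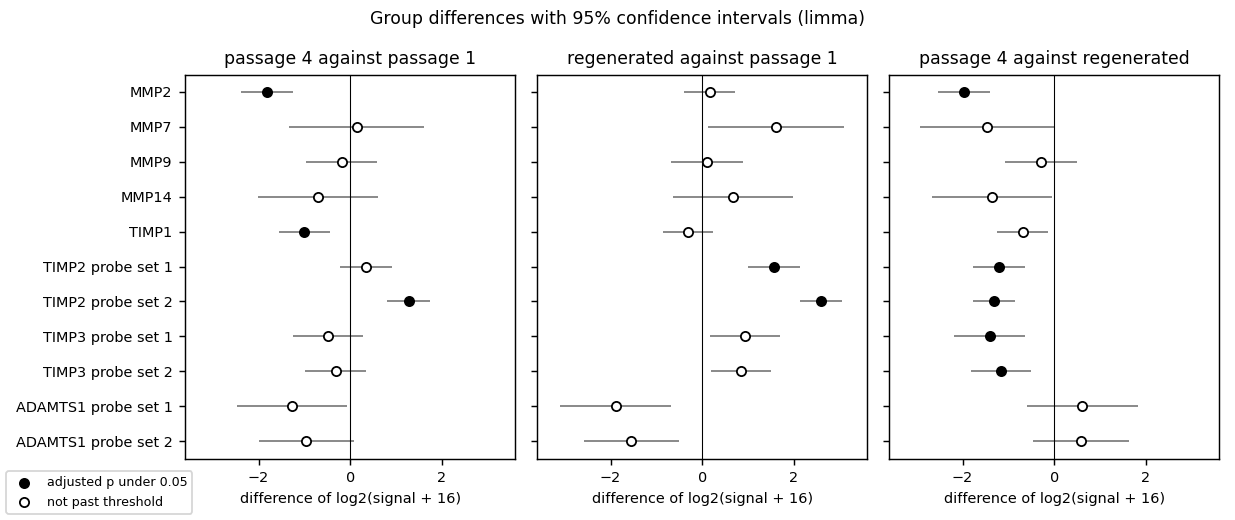
Difference of log2(signal + 16) for the 11 tested probe sets in each comparison (x axis), with 95% confidence intervals from limma. Filled points passed an adjusted p of 0.05: 3 in passage 4 against passage 1, 2 in regenerated against passage 1 and 5 in passage 4 against regenerated.

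MMP2, also called gelatinase A, cuts gelatin and the type IV collagen of the basement membrane. Its signal was 3913, 5171 and 3217 in the passage 1 arrays, 938, 1745 and 879 at passage 4, and 4951, 3900 and 4663 in regenerated cells. All passage 4 arrays were below every other array, and the ranges of passage 1 and regenerated cells overlapped. The passage 1 mean was 4100 ± 990, the passage 4 mean 1187 ± 484 and the regenerated mean 4505 ± 543 (SD, n = 3). The log2 difference of passage 4 from passage 1 was -1.82 (SE 0.26, limma adjusted p = 0.00401), a level 3.53-fold lower. That of passage 4 from regenerated cells was -1.97 (SE 0.26, limma adjusted p = 0.00157). Regenerated and passage 1 cells differed by 0.16 with a 95% interval of -0.41 to 0.72, so a rise or fall within these bounds was not excluded. With the kind of labelling as a block the passage 4 differences were -1.78 and -1.91 and did not pass (limma adjusted p = 0.0549 and 0.101).

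MMP14, the membrane-type protease that activates the proenzyme of MMP2, varied widely within each group. Its signal was 120, 312 and 582 at passage 1, 206, 249 and 89.7 at passage 4, and 1046, 399 and 226 in regenerated cells. The 3 groups overlapped one another, and the highest array was more than 4 times the lowest in both passage 1 and regenerated cells, with ratios of 4.86 and 4.63. No difference passed: the log2 values were -0.70 at passage 4 and 0.67 in regenerated cells against passage 1, each with an SE of 0.60. The 95% interval was -2.01 to 0.61 for the first and -0.64 to 1.97 for the second, so a fall of over 2-fold lies inside the first interval and a rise of over 2-fold inside the second. Passage 4 differed from regenerated cells by -1.37 (95% interval -2.67 to -0.06, limma adjusted p = 0.157). With the kind of labelling as a block, the passage 4 values turned to 0.44 against passage 1 and 0.34 against regenerated cells, and the regenerated value against passage 1 was 0.10. Without regenerated array 1 the last was 0.08, and the difference of passage 4 from regenerated cells -0.78.

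MMP9, or gelatinase B, was dim. It was above the 40th percentile on 3 of the 9 arrays, the fewest that the filter allows, with signals of 31.8, 27.4 and 52.8 at passage 1, 31.7, 30.5 and 27.4 at passage 4, and 65.8, 48.6 and 17.2 in regenerated cells. The groups overlapped, and regenerated cells held both the highest and the lowest array. No comparison of MMP9 passed, with limma adjusted p of 0.83, 0.903 and 0.643.

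MMP7, or matrilysin, is a small protease without the hemopexin domain that most of the family carry. Its signal was 96.6, 183 and 2.98 at passage 1, 50.6, 52.5 and 108 at passage 4, and 261, 241 and 152 in regenerated cells. Regenerated cells were above all passage 4 arrays. Passage 1 array 1 lay within the passage 4 range and array 2 within the regenerated range. Passage 1 array 3 was below both groups, near the floor. The log2 difference was 1.61 for regenerated against passage 1 (SE 0.67) and -1.47 for passage 4 against regenerated, and neither passed (limma adjusted p = 0.188 and 0.176). Without passage 1 array 3 the first value was 0.61. The difference of passage 4 from passage 1 was 0.14 and changed sign without that array, to -0.86. Also without it, the difference of passage 4 from regenerated cells passed (limma adjusted p = 0.0204).

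MMP1, the interstitial collagenase, and MMP3, stromelysin-1, which cuts proteoglycans and activates other proenzymes, were not tested. MMP1 had signals of 7.73, 14.6 and 21.6 at passage 1, 20.4, 5.31 and 19.6 at passage 4 and 7.48, 15.6 and 5.11 in regenerated cells. Its groups overlapped, and none of its arrays reached the 40th percentile. The 4 probe sets of MMP3 had no value above 25.1. With no filter on dim probe sets, none of the 6 probe sets left out passed in any comparison, and the lowest adjusted p was 0.241, for MMP3 probe set 4 in regenerated against passage 1 (log2 0.56, limma). In the RefSeq assembly Sscrofa11.1, MMP1 and MMP3 are neighbours in an unbroken row of 8 metalloproteinase genes, in the order MMP7, MMP20, MMP27, MMP8, MMP1, MMP3, MMP12 and MMP13.

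TIMP1, a secreted inhibitor of most matrix metalloproteinases that also binds the proenzyme of MMP9, was among the brightest probe sets. Its signal was 8247, 10580 and 8784 at passage 1, 5312, 4978 and 3630 at passage 4, and 4726, 8180 and 10331 in regenerated cells. The passage 4 arrays were all below passage 1, whereas regenerated array 1 lay among the passage 4 values and the other regenerated arrays near or within the passage 1 range. Passage 4 was at 4640 ± 891 and passage 1 at 9204 ± 1222 (SD, n = 3), a 2-fold lower level (95% interval of the log2 difference -1.55 to -0.44, limma adjusted p = 0.0451). That call was close to the threshold. It was lost in 11 of 19 alternative fits, with limma adjusted p from 0.0115 to 0.348, and the value within the kind of labelling was -0.85. The fits that lost it included those without passage 1 array 2 (-0.89) or 3 (-1.03), without passage 4 array 1 (-1.10), 2 (-1.06) or 3 (-0.83), and without regenerated array 2 (limma adjusted p = 0.0654). Regenerated cells differed from passage 1 by -0.31 (95% interval -0.86 to 0.24) and passage 4 from regenerated cells by -0.68 (limma adjusted p = 0.0985), and neither passed. Without regenerated array 1 the latter passed (limma adjusted p = 0.0082).

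TIMP2, the inhibitor that also joins MMP14 and the proenzyme of MMP2, had 2 probe sets, and both were highest in regenerated cells. Probe set 1 had signals of 1883, 2183 and 3523 at passage 1, 2604, 3117 and 3715 at passage 4 and 5574, 6755 and 9967 in regenerated cells. Probe set 2 had signals of 803, 1173 and 1079 at passage 1, 1967, 2356 and 3158 at passage 4 and 5969, 5380 and 7142 in regenerated cells. On probe set 2 the 3 groups were separate, in the order passage 1, passage 4, regenerated, while on probe set 1 the passage 1 and passage 4 arrays overlapped.

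In regenerated cells against passage 1, TIMP2 rose by 2.59 on probe set 2 (SE 0.21, limma adjusted p = 0.00019), a 6.01-fold higher level, and by 1.56 on probe set 1 (SE 0.26, limma adjusted p = 0.00652). Probe set 2 ranked 4 of 15299 by p in that comparison. Within the kind of labelling the values were 2.43 and 1.37, and both still passed (limma adjusted p = 0.000602 and 0.0185). At passage 4 the probe sets gave different answers against passage 1. Probe set 2 rose by 1.27 (SE 0.21, limma adjusted p = 0.00745), and by 1.59 within the kind (limma adjusted p = 0.0292), whereas probe set 1 was at 0.35 with a 95% interval of -0.22 to 0.92 and did not pass. Passage 4 was below regenerated cells by -1.21 and -1.32 on probe sets 1 and 2 (limma adjusted p = 0.0123 and 0.0039). With the kind as a block, which these groups do not share, the values were -0.65 and -0.84, and neither passed (limma adjusted p = 0.456 and 0.233). The call of probe set 1 was lost without passage 4 array 1 (-1.08, limma adjusted p = 0.0514) or regenerated array 3 (-0.98, limma adjusted p = 0.0535). The 2 probe sets correlated with r of 0.90 over the 9 arrays.

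TIMP3 stays bound to the matrix and inhibits ADAM17 and ADAMTS proteases besides matrix metalloproteinases. Probe set 1 had signals of 148, 417 and 175 at passage 1, 132, 155 and 180 at passage 4 and 487, 534 and 320 in regenerated cells. Probe set 2 followed it (r of 0.99 over 9 arrays) with 152, 377 and 171, then 166, 168 and 176, then 426, 436 and 339. On both, passage 1 array 2 stood with the regenerated arrays, and the other passage 1 arrays stood with passage 4. Passage 4 was below regenerated cells by -1.41 (SE 0.35, limma adjusted p = 0.0224) and -1.16 (SE 0.30, limma adjusted p = 0.0282). With the kind of labelling as a block these were -0.60 and -0.47 and did not pass (limma adjusted p = 0.606 and 0.647). The call of probe set 1 was lost without any 1 of the passage 4 arrays (-1.31, -1.41 and -1.51 without arrays 1, 2 and 3) or without regenerated array 2 (-1.27). That of probe set 2 was lost without any 1 of the 6 arrays compared, at -1.27 to -1.09, with limma adjusted p of 0.0556 to 0.0978. Regenerated cells differed from passage 1 by 0.93 and 0.84 and did not pass (limma adjusted p = 0.146 and 0.127). Without passage 1 array 2 the values were 1.36 and 1.23, and both passed (limma adjusted p = 0.0276 and 0.0217). Probe set 3 of TIMP3 was dim, at 2.45 to 18.4, and does not bear on this.

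ADAMTS1 is a secreted protease of the thrombospondin-motif family that cuts versican and aggrecan. Probe set 1 had signals of 694, 1294 and 1446 at passage 1, 613, 740 and 183 at passage 4 and 118, 404 and 455 in regenerated cells. All 3 regenerated arrays were below all 3 passage 1 arrays, and passage 4 overlapped both groups. Probe set 2 had 510, 1013 and 1057, then 523, 635 and 208, then 147, 511 and 255, and its regenerated and passage 1 ranges touched. ADAMTS1 did not pass in any comparison. In regenerated cells against passage 1 the log2 differences were -1.89 (SE 0.55, limma adjusted p = 0.0697) and -1.55 (SE 0.48, limma adjusted p = 0.0834). At passage 4 they were -1.28 and -0.96 (limma adjusted p = 0.223 and 0.302), or -0.64 and -0.30 within the kind of labelling. Without passage 4 array 3, the lowest of its group, the passage 4 values were -0.68 and -0.49, and the regenerated value of probe set 1 passed (limma adjusted p = 0.0382).

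The balance of protease and inhibitor was described within each array, as the log2 signal of one gene minus that of another on their brightest probe sets, with the passage 1 mean set to 0. It shows unequal change, not a ratio of proteins, and has no test. For MMP2 minus TIMP2 the passage 1 arrays were at 0.33, 0.52 and -0.85, passage 4 at -2.18, -1.55 and -2.78, and regenerated cells at -0.89, -1.51 and -1.81. Every passage 4 and regenerated array was below every passage 1 array. At passage 4 it was MMP2 that had passed the test on these probe sets, and in regenerated cells TIMP2. For MMP2 minus TIMP1 passage 4 was at -0.82 ± 0.49 (SD, n = 3), below all passage 1 arrays, and the regenerated arrays were at 1.25, 0.12 and 0.04, of which array 1 stood apart. For TIMP2 minus TIMP1 the values were 1.35 ± 0.54 and 1.87 ± 0.26 (SD, n = 3), with all arrays of both groups above all passage 1 arrays. For MMP14 minus TIMP2 the groups overlapped, at -0.77 to 0.47 in passage 1, -2.10 to -0.52 at passage 4 and -2.33 to 0.64 in regenerated cells. MMP2 minus MMP14 overlapped as well, at -1.32 to 1.10, -1.66 to -0.67 and -1.53 to 0.52.

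**Figure D4:**
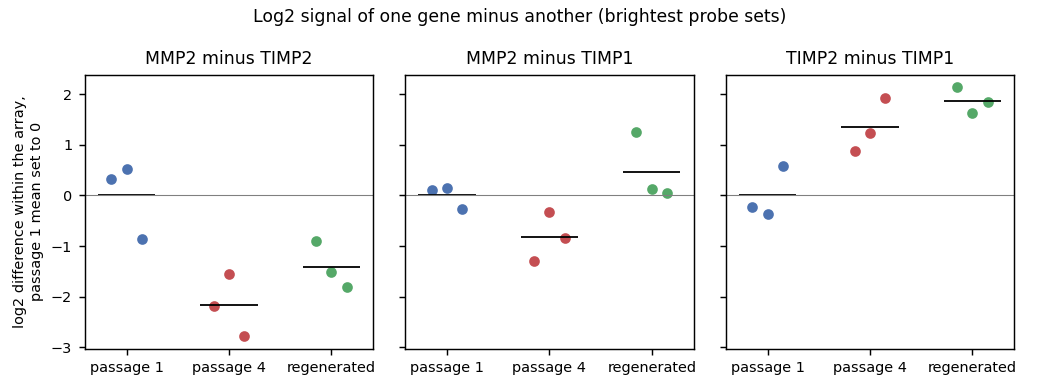
Log2 signal of one gene minus another within each array (y axis, log2 units, passage 1 mean set to 0), with points for the arrays of each group and bars at the group means. For MMP2 minus TIMP2 the passage 4 mean is -2.17 and the regenerated mean -1.40, both below all passage 1 points.

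Lists of related genes were counted by the brightest tested probe set of each gene. At passage 4 against passage 1, 2.71% of all tested probe sets rose, 2.08% fell and 19.7% had an unadjusted p under 0.05 (limma). In regenerated against passage 1 these shares were 2.98%, 2.51% and 22%, and at passage 4 against regenerated 8.14%, 4.35% and 28.6%. They belong beside the counts of every list below. Of 29 other metalloproteinases 7 were on the array and 5 were tested, all of the ADAM family. None passed at passage 4 against passage 1, where 3 of 5 had an unadjusted p under 0.05 (limma), and their median was -0.71, or -0.33 over all probe sets of these genes. In regenerated cells ADAM17, which sheds TNF from the cell surface and is inhibited by TIMP3, fell from 668 to 372, by 0.84 on the log2 scale (limma adjusted p = 0.0449, and 0.0613 within the kind of labelling). The median of the 5 was there -0.42. Between passage 4 and regenerated cells 0 of 5 passed, with 1 at an unadjusted p under 0.05 (limma), and the median was -0.00, or 0.27 over all probe sets of these genes.

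Of 5 tested inhibitors and partners of these enzymes, 1 rose in regenerated cells against passage 1. That was THBS2, thrombospondin-2, a matrix protein known to mediate the uptake of MMP2, at 348 against 50.9 at passage 1 (log2 2.47, limma adjusted p = 0.00196). It passed within the kind of labelling too, at 2.18 (limma adjusted p = 0.00309). Between passage 4 and regenerated cells THBS2 was lower at passage 4 by -2.35 and THBS1 higher by 2.08 (limma adjusted p = 0.00167 and 0.0196). Within the kind these were -1.47 and 0.32 and did not pass. At passage 4 against passage 1, 0 of the 5 passed, with 2 at an unadjusted p under 0.05 (limma), against 19.7% of all tested probe sets. The list's median was 0.12 in that comparison and -0.05 in regenerated against passage 1, or 0.03 there over all probe sets.

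The plasmin system and the cathepsins act beside the metalloproteinases, and plasmin can activate their proenzymes. Of 10 tested genes 2 fell and 0 rose at passage 4 against passage 1, with a median of -0.49, where 2.08% of all tested probe sets fell. PLAU, the urokinase that makes plasmin, went from 3568 to 1617 (log2 -1.12, limma adjusted p = 0.0286), and CTSS, cathepsin S, from 3422 to 1737 (log2 -0.96, limma adjusted p = 0.0091). Of these, CTSS still passed within the kind (limma adjusted p = 0.0386), and PLAU, at -0.76, did not. In regenerated cells PLAU fell as well, by 1.30 on the log2 scale (limma adjusted p = 0.0133). SERPINB2, an inhibitor of urokinase, fell there from 3637 to 480, and both passed within the kind (limma adjusted p = 0.0103 and 0.00795). Of the 10 genes 2 fell and 0 rose there, and the list's median was 0.23, or -0.09 when all probe sets of a gene were used. Between passage 4 and regenerated cells 1 rose, SERPINB2, by 3.99, and 5 fell, among them CTSD (log2 -1.56) and CTSS (log2 -1.25), with a median of -0.54. None of these 6 passed within the kind, where SERPINB2 was at 3.55, CTSS at -1.55 and CTSK at -0.82, near or beyond their first values, and CTSD and PLAT went from -1.56 to -0.19 and from -0.98 to -0.20.

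Among 18 tested substrates, proteins of the matrix that these enzymes cut, 5 rose and 1 fell in regenerated cells against passage 1. Over all tested probe sets 2.98% rose and 2.51% fell. In 17 of 18 the difference was above 0, with a median of 0.34 against -0.01 over all tested probe sets. BGN, biglycan, rose by 1.37, COL5A1 by 1.03 and COL8A1 by 0.73 (limma adjusted p = 0.0429, 0.0173 and 0.0262), and within the kind of labelling the collagen genes passed while BGN did not (limma adjusted p = 0.0821). The 1 counted as a fall was VCAN, versican, a substrate of ADAMTS1, which exceeded the 40th percentile on the 3 passage 1 arrays alone, at 50.1, 52.2 and 56.6. It lay below the percentile on the regenerated arrays, at 9.05, 11.2 and 2.48, so the size of its difference cannot be read. At passage 4, BGN alone passed, rising by 1.50 (limma adjusted p = 0.0336, and 0.142 within the kind), and the median was 0.06. Between passage 4 and regenerated cells 4 of 18 were lower at passage 4, FBLN1 by -1.67, COL8A1 by -1.33, COL5A1 by -1.10 and SPARC by -0.39. None passed within the kind, where COL8A1, COL5A1 and SPARC were as far or farther from 0, at -1.36, -1.19 and -0.55, and FBLN1 was at -0.59.

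Known inducers and transcription factors of MMP1, MMP3 and MMP9 were tested for 16 genes. At passage 4 against passage 1, 3 fell and 1 rose, where 2.08% of all tested probe sets fell and 2.71% rose. Of the 16, 1 was above 0, and the median was -0.76, against 0.04 over all tested probe sets. IL6, an inflammatory cytokine, was at 202 against 2355 (log2 -3.34, limma adjusted p = 0.00144) and passed within the kind of labelling too (limma adjusted p = 0.0212). The transcription factor genes ETS2 (log2 -1.24) and CEBPB (at 1196 against 2345) fell, while JUN, a subunit of AP-1, was the 1 that rose, by 1.42. None of these 3 passed within the kind, where ETS2 and CEBPB were at -1.06 and -1.17 and JUN at 0.64. In regenerated cells 3 fell and 1 rose as well, with a median of -0.21. IL6 (log2 -3.40) and IL1A (log2 -2.01) fell, and both passed within the kind (limma adjusted p = 0.000504 and 0.0247). FOSL2, another AP-1 subunit, rose by 1.16 and IL1R1 fell by 0.98 on the log2 scale, and neither passed within the kind, where FOSL2 was at 0.97 and IL1R1 was about as low as before (limma adjusted p = 0.0666 and 0.0508). JUN did not pass in regenerated cells (log2 0.81, limma adjusted p = 0.139) but did within the kind, at 1.20 (limma adjusted p = 0.013). Between passage 4 and regenerated cells 4 were lower at passage 4, with FOSL2 at -1.56 and ETS2 at -1.14, and the median was -0.34. None of the 4 passed within the kind.

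**Figure D5:**
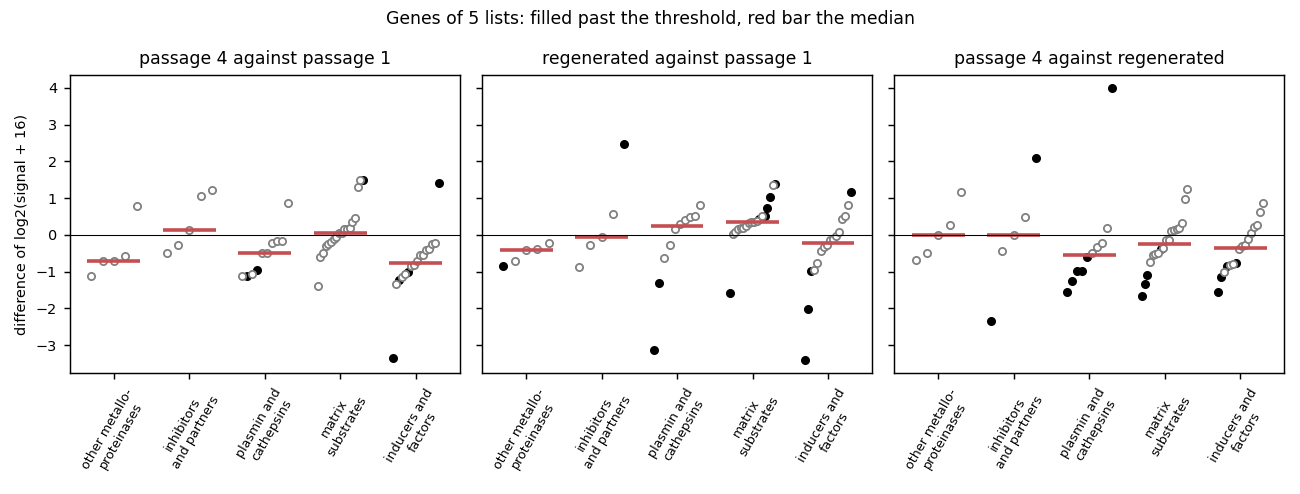
Difference of log2(signal + 16) of each tested gene of 5 lists (y axis) in the 3 comparisons, with filled points past an adjusted p of 0.05 and a red bar at each list's median. In regenerated against passage 1, 17 of the 18 matrix substrates lie above 0, and in passage 4 against passage 1, 15 of the 16 inducers and factors lie below 0.

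Markers of other cell types moved with some of these groups. Of 11 fibroblast markers 10 were on the array, with a summed signal of 1433 to 1660 in passage 1 arrays, 6099 to 10147 at passage 4 and 2385 to 3496 in regenerated cells, and the 3 ranges were separate. POSTN made up most of the passage 4 sum, with a mean of 6387, and its own difference from passage 1 did not pass (log2 2.87, limma adjusted p = 0.147). Without POSTN, a choice made after seeing the data, the sums were 557 to 855, 936 to 1207 and 1996 to 2616, and regenerated cells were highest. At passage 4 against passage 1, 0 of the 8 tested fibroblast markers passed. An unadjusted p under 0.05 (limma) was found for 3, against 19.7% of all tested probe sets. In regenerated cells 3 of the 8 rose and 0 fell against passage 1, where 2.98% of all tested probe sets rose and 2.51% fell. FAP rose by 3.25, THY1 by 2.89 and LUM by 3.50 (limma adjusted p = 0.00241, 0.00327 and 0.0396). Among the others POSTN was at -2.48, COL1A2 at 0.08 and DCN at 0.23 there. The passage 1 means of FAP and LUM, 23.1 and 12.6, were below the 40th percentile of every passage 1 array. The sizes of the FAP and LUM rises therefore cannot be read. The fibroblast markers COL3A1 and DPT were below the 40th percentile on all 9 arrays. Of 10 smooth muscle markers 8 were on the array, with sums of 18061 to 38603, 18800 to 35288 and 33765 to 48224 in passage 1, passage 4 and regenerated cells. CALD1 and TAGLN were bright on every array, at 8622 to 14721 and 5674 to 11340. ACTA2 ran from 196 to 18924, and DES and MYLK were below the 40th percentile throughout. SMTN rose by 0.89 in regenerated cells against passage 1 (limma adjusted p = 0.0422). CNN1 was lower at passage 4 than in regenerated cells by -2.53 (limma adjusted p = 0.0325). Neither call passed with the kind of labelling as a block. The part of such cells in the rise of TIMP2 and THBS2 in regenerated cells, and in the changes at passage 4, was not tested. Of 15 leukocyte markers 11 were on the array and 0 were bright enough to be tested, with sums of 161 to 583, 167 to 215 and 212 to 288, and PTPRC, CD3E, ITGAM and CD163 were below the 40th percentile on all arrays. The 12 endothelial markers summed to 24724 to 30180, 24262 to 25339 and 23102 to 33680, and these ranges overlapped. CDH5 and PECAM1 gave most of that sum. Of the 11 tested endothelial markers, ENG rose by 1.92 and CLDN5 changed by -1.62 in regenerated cells against passage 1 (limma adjusted p = 0.0153 and 0.0134). Both passed within the kind of labelling too, at 1.44 and -1.60 (limma adjusted p = 0.0207 and 0.0287). NOS3 changed by -0.97 at passage 4 against passage 1 (limma adjusted p = 0.045). Within the kind NOS3 was at -0.55 and did not pass. In bulk RNA such as this, fewer cells of a type and less RNA per cell cannot be told apart.

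For each member whose leading probe set passed in a comparison, the genes with the most similar profile over the 9 arrays were found among 5493 other tested genes. These likenesses are descriptions over 9 arrays that fall into 3 groups, and all values of an array share its labelling. MMP2 was most like CD59 (Pearson r of 0.97), ARSA (0.96) and TSPAN13 (0.96). TIMP1 was most like MED10 (0.95), AP2B1 (0.93) and GPRC5A (0.92). TIMP2 was most like PMM1 (0.96), TLR4 (0.96) and MRAS (0.95). TIMP3 was most like MPZL1 (0.94), GDPD5 (0.93) and CST3 (0.92), the last of which encodes the protease inhibitor cystatin C.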

How the data were processed

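The deposited table gives one array intensity per probe set and array, made by the authors with MAS5, per the submitters' processing notes; for the version of MAS5, its scaling target and its detection calls, the sources used here hold no entry. Its mean trimmed by 2% at each end was 500.1 on every array, so no further scaling was applied. Of 24123 probe sets, 124 controls were left out. Annotated with 1 symbol were 10099 probe sets, with more than 1 symbol 198, and with no symbol 13826. RefSeq (Sscrofa11.1) held the Entrez identifiers of all 17 member probe sets. Intensities were taken as log2(signal + 16), and limma 3.58.1 (R 4.3.3) fitted all 9 arrays at once (lmFit, eBayes with an intensity trend, two-sided; 6 residual and 5.65 prior degrees of freedom), after tests on simulated data. Named were all members, called list genes with the largest change (up to 4 per list and comparison), and the 3 genes most like a called member. Members and lists were chosen with earlier results of these data known. The number of arrays limits the precision. Alternatives were other pseudocounts (1, 64), filters, scalings and fits, each array left out in turn, and blocks for replicate number and kind of labelling.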

Additional observations from a re-analysis of the deposited data

Results flagged for a closer look

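The following probe sets were picked out because the change against passage 1 differed between passage 4 and regenerated cells, by the test of that difference in limma with adjustment over all tested probe sets. MMP2 differed by -1.97, TIMP2 by -1.21 on probe set 1 and -1.32 on probe set 2, and TIMP3 by -1.41 on probe set 1 and -1.16 on probe set 2, all lower at passage 4. None of these passed with the kind of labelling as a block. Groups of 3 arrays were too small for a search for single outlying arrays.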

How the results depend on the processing

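Over all settings 569 values of member probe sets kept their direction and side of the threshold, 29 lost the call, 6 gained one and 17 changed sign. Most of the 569 were not called in the main fit and had no call to lose. Only the 3, 2 and 5 probe sets called in the 3 comparisons could lose one. TIMP2 probe set 2 passed against passage 1 in all 19 alternatives, at 1.09 to 1.59 in passage 4 and 2.43 to 2.70 in regenerated cells, as did probe set 1 in regenerated cells (1.33 to 1.82). These alternatives are not all separate checks. In regenerated against passage 1, the block for kind of labelling and the fit without passage 1 array 1 gave the same TIMP2 values. MMP2 passed in 18 of 19 alternatives both at passage 4 against passage 1 and against regenerated cells. With the kind of labelling as a block, 1 member and 150 probe sets in all passed at passage 4 against passage 1, and 0 members and 35 in all at passage 4 against regenerated. That block turned MMP7 to -0.44, MMP14 to 0.44 and TIMP3 to 0.06 and 0.15 at passage 4 against passage 1, and MMP14 to 0.34 against regenerated. At passage 4 against passage 1, MMP7 was at -0.07 with a pseudocount of 64 and -0.02 with median centring. In regenerated against passage 1, MMP9 was at -0.02 with quantile normalization. Counts over all probe sets in regenerated against passage 1 were 479 with only the compared groups fitted and 554 with the replicate number as a block. With the replicate block 549 probe sets in all passed at passage 4 against passage 1, where TIMP1 was lost (limma adjusted p = 0.0643), and 1626 against regenerated. The block is only a number here, since same-numbered arrays deviated together in 1 of 9 pairs (r above 0.1; range -0.14 to 0.19). Leaving out 1 array gave 244 (without passage 1 array 2) to 1403 (without passage 1 array 1) calls in all at passage 4 against passage 1, with 310, 300 and 262 without passage 4 arrays 1, 2 and 3. It gave 291 (without regenerated array 2) to 1238 (without regenerated array 1) in regenerated against passage 1, with 345 without regenerated array 3 and 513 without passage 1 array 3, and 2 to 4 member calls, the highest without passage 1 array 2. It gave 895 (without regenerated array 3) to 2406 (without passage 1 array 1) at passage 4 against regenerated, and 2 to 6 member calls, the lowest without passage 4 array 1 and the highest without passage 1 array 3. Signs changed on leaving out 1 array for MMP7 (-0.86 to 0.84), MMP9 (-0.32 to 0.01) and TIMP3 probe set 2 (-0.55 to 0.07) at passage 4 against passage 1, and for MMP2 (-0.01 to 0.34), MMP9 (-0.17 to 0.48) and TIMP1 (-0.56 to 0.01) in regenerated cells, none past the threshold. Beyond these constructions the cause was not tested. Dim signals limit MMP1, MMP3 and MMP9.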
